A study of Mus musculus with 4 samples.

Results

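Vitronectin and the plasminogen activator system were taken as 7 genes, namely Vtn, Plat, Plau, Plaur, Serpine2, Serpinb2 and Plgrkt, through every probe whose platform gene symbol is one of them. In the yolk sac arrays 6 of the 7 genes were found through 8 of 45281 probes, and 5 of the genes passed the filter on dim probes and were tested among 10603 genes. Serpine2, which encodes protease nexin-1, was not analysed here. The listed genes were chosen with their differences between the groups already known, so the values below describe them. No p-value is given for any of the 7. Where a member is said to pass or not pass a threshold, under any setting, this too is description and not a test of the members.

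The samples were 4 total RNA preparations of C57BL/6 mouse yolk sacs at embryonic day 9.5, each measured on an Illumina bead array. Arrays 1 and 2 of the ETV2 CKO group came from mice named Flk1Cre;ETV2 CKO, in which a Cre recombinase acting in cells with FLK1, the endothelial growth factor receptor now called Kdr, deleted loxP-flanked Etv2, the gene of an ETS-family factor needed for blood and endothelial cells. Arrays 1 and 2 of the control group are titled control and described as WT, where the CKO arrays are described as Mut. No further statement says whether the controls carried the Cre or the loxP sites. The labels do not say whether embryos were pooled or came from separate litters, so the errors measure the spread between these arrays, which may be technical.

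Plasminogen is an inactive plasma protease that is cut to plasmin by tissue-type (Plat) or urokinase-type (Plau) plasminogen activator. Urokinase is held at the cell surface by its receptor (Plaur), plasminogen by proteins with a terminal lysine such as Plgrkt, and serine protease inhibitors of the serpin family stop the activators. Vitronectin is an adhesive plasma and matrix protein that binds integrins and the urokinase receptor, and secretion of tissue-type activator has long served as a mark of parietal endoderm formed from embryonal carcinoma cells.

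Between 17934 and 18798 probes were above background (detection p under 0.05) on each array. The single Etv2 probe read 206 and 227 raw units on the CKO-labelled arrays, and 157 and 177 in controls, a log2 difference of 0.46 ± 0.10 (SE, n = 2 a group) that runs against the label. It was 0.13 on the authors' values, and there and without CKO replicate 1, CKO replicate 2 or control replicate 1 it did not pass the test. Whether the probe lies in the deleted part is not known here, so the groups rest on the labels alone. The visceral endoderm markers Afp, Ttr, Apoa1, Apob, Amn, Cubn, Hnf4a and Rbp4 were all tested and above background. In tissue RNA, a change in the number of cells of a type and a change in RNA per cell cannot be told apart.

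Vtn, both activator genes and neither surface receptor gene were higher in CKO-labelled samples at an adjusted p (limma) under 0.05. Of the 5 tested members 3 were higher, 0 lower and 2 not past that threshold (limma, with 3 higher and 0 lower at an unadjusted p under 0.05). Over all 10603 genes 14.4% were higher and 10.8% lower, or 25.2% in either direction, and since the members were picked with this comparison in view nothing is read from their share. Median scaling in place of quantile normalization gave 1535 higher and 649 lower genes, in place of 1527 and 1144. The median log2 difference of the 5 was 0.71, against 0.02 over all tested genes. In 4 of the 5 the groups did not overlap, as in 65.4% of all genes.

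Vtn, the gene of vitronectin, had raw signals of 564 and 573 in CKO-labelled samples, against 133 and 142 in controls. Its normalized log2 values were 8.93 and 8.72 on the CKO-labelled arrays and 5.68 and 5.66 on the control arrays. The groups stood far apart, and within each the arrays differed little. The difference was 3.16 ± 0.11 (SE, n = 2 a group), or 8.93-fold, the 2nd highest of the 10603 differences. The control signals were near the bottom of the measurable range, with detection p-values of 0.00641 and 0.00534 and whole-array median signals of 109 and 114. The size of the difference changed with the background step, to 1.93 on the log2 scale without background correction and 2.53 with an offset of 50. It was 1.30 (2.47-fold) on the authors' values, which differ in more than that step, and the raw means stood in a ratio of 4.14.

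The 300 bases around the annotated start of Vtn are shown because this gene had the largest difference among the members, with those of Plaur, which did not pass, for comparison. They come from RefSeq on build GRCm38.p6, run from 250 bases before the start to 50 after it, and lie at chr11:78498870-78499169 on the plus strand for Vtn and at chr7:24462233-24462532 on the plus strand for Plaur. Capitals mark GGAA on either strand (written TTCC where it lies on the other strand), the core letters bound by ETS factors as a family.
Vtn: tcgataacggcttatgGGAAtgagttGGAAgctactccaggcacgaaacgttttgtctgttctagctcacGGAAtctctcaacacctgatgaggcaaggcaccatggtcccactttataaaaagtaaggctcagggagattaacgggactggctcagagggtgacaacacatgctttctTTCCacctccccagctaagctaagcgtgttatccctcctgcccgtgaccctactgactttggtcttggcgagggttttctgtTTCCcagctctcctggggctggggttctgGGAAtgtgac
Plaur: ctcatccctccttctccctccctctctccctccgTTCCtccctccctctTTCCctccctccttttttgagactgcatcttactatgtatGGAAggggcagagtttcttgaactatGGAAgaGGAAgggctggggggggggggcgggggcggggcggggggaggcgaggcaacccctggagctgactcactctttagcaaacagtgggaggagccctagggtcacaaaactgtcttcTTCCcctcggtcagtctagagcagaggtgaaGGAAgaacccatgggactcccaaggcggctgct
The Vtn window holds 6 such matches and the Plaur window 7, where 96.0% of 32851 windows of the same length hold at least 1 and the median is 3. The longer form CCGGAA, which contains GGAA, was in neither window and in 14.9% of all windows. TATAAA on either strand matched 2 times in the Vtn window, at overlapping positions, and 0 times in that of Plaur, against 13.6% of all windows with a match. Windows were found for 5 of the 7 members. In the other tested one, Plgrkt, GGAA matched 5 times and CCGGAA 1 time. These matches are letters in a sequence and say nothing of binding in these cells.

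**Figure D1:**
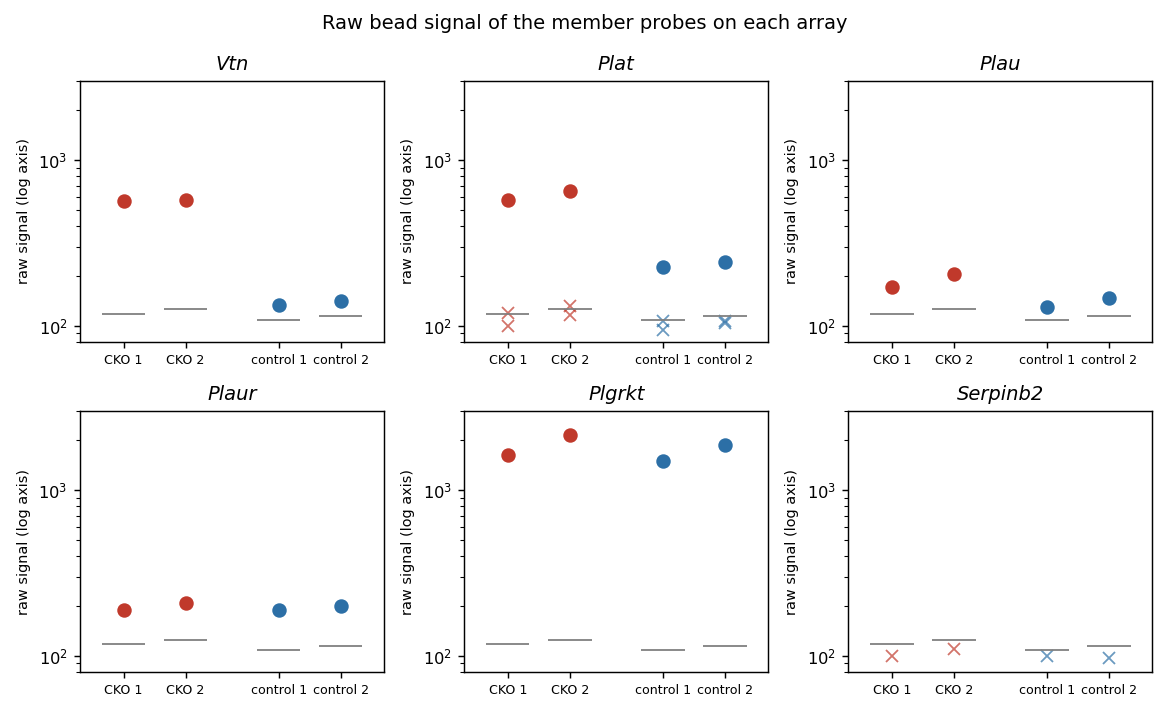
Raw bead signal (log axis) of each member's probes on the ETV2 CKO arrays (red) and control arrays (blue), with filled circles for the probe used, crosses for probes below background on all 4 arrays, and grey bars for the median of all probes on that array. Vtn and the used Plat probe are well separated between the groups, Plau less so, and Plaur and Plgrkt overlap in raw signal.

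The activator genes came next in size. Plat, the gene of tissue-type plasminogen activator, read 573 and 651 raw units in CKO-labelled samples, against 226 and 243 on the control arrays. Its normalized values were 8.96 and 8.95 on the CKO-labelled arrays and 7.28 and 7.23 on the control arrays, so that each group was tight and the gap many times wider than either. The difference of 1.70 ± 0.09 (3.24-fold, SE, n = 2 a group) was the 27th highest on the array, and it was 1.26 without background correction and 0.94 (1.92-fold) on the authors' values. This value rests on 1 of 3 Plat probes. Another probe of the same RefSeq transcript gave 118 and 131 raw units on the CKO-labelled arrays and 107 and 107 on the control arrays, and the remaining one, from a separate cDNA, gave 99.3 and 117 on the CKO-labelled arrays and 94.0 and 103 on the control arrays. All readings of both were below background, so they give no further measure of the difference.

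Plau, the gene of urokinase-type activator, read 171 and 204 raw units in CKO-labelled samples, against 130 and 146 on the control arrays. On the normalized scale that was 6.27 and 6.51 on the CKO-labelled arrays and 5.57 and 5.80 on the control arrays. The groups did not overlap, but the spread within each was larger than for Plat. Plau was higher by 0.71 ± 0.13 (1.63-fold, SE, n = 2 a group), the 429th highest difference, and by 0.29 without background correction, 0.47 with an offset of 50 and 0.16 (1.12-fold) on the authors' values.

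The receptor genes behaved otherwise. Plaur, the gene of the urokinase receptor, read 189 and 209 raw units on the CKO-labelled arrays and 189 and 200 on the control arrays, which overlap. After normalization its values were 6.58 and 6.58 on the CKO-labelled arrays and 6.83 and 6.77 on the control arrays. They no longer overlapped, and the difference of -0.22 ± 0.09 (SE, n = 2 a group) did not pass the threshold over all genes. The raw means differed in the other direction, at a ratio of 1.02 of CKO-labelled over control arrays, while the raw median of all probes was also higher on the CKO-labelled arrays (118 and 125 against 109 and 114). Plaur lies on chromosome 7, as does Etv2, with 110 tested genes between them.

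Plgrkt, the gene of a plasminogen receptor with a terminal lysine, read 1624 and 2147 raw units on the CKO-labelled arrays and 1509 and 1883 on the control arrays. Its normalized values, 10.64 and 10.89 on the CKO-labelled arrays and 10.59 and 10.76 on the control arrays, overlapped. The difference of 0.09 ± 0.12 (SE, n = 2 a group) did not pass, and was -0.036 without CKO replicate 2.

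The inhibitor side of the system could be read only in part. Serpinb2, the gene of PAI-2, gave 99.7 and 110 raw units on the CKO-labelled arrays and 99.3 and 97.5 on the control arrays. All 4 readings were below background (detection p between 0.600 and 0.933), so no fold is given. With Serpinb2 not above background and Serpine2 not analysed, the activators could not be set against the listed inhibitors.

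**Figure D2:**
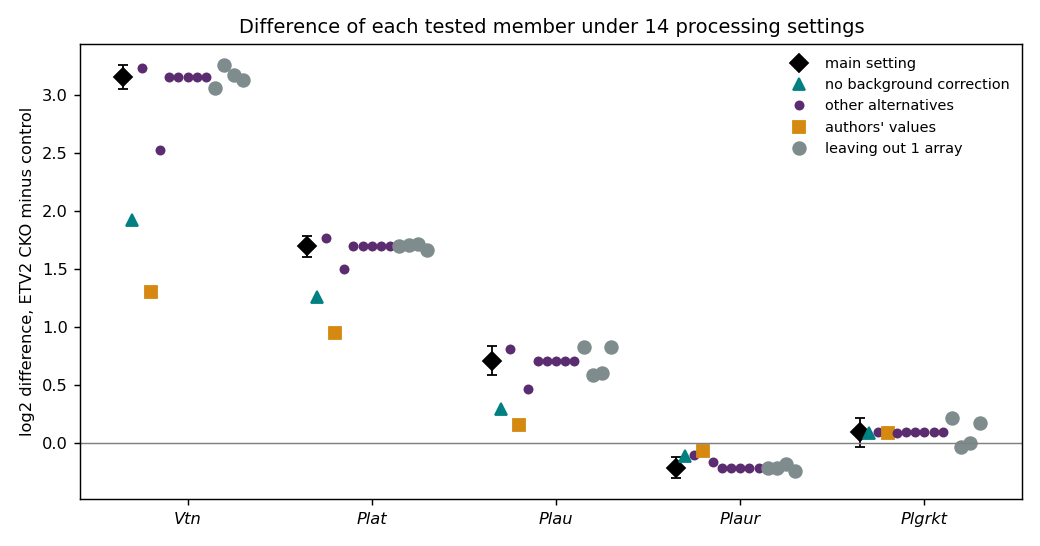
Log2 difference of ETV2 CKO minus control arrays for each of the 5 tested members under the main setting (diamond, ± SE of the fit) and 13 alternatives. Vtn, Plat and Plau stay above 0 in each, with the smallest differences on the authors' values, and Plgrkt lies on either side of 0.

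Among 7 further inhibitor genes 3 were tested, of which 1 rose and 2 did not pass. Serping1, the gene of C1 inhibitor, which blocks plasma kallikrein and also acts on plasmin and tissue-type activator, read 282 and 306 raw units in CKO-labelled samples, against 174 and 181 on the control arrays. It rose by 0.99 ± 0.10 (limma adjusted p = 0.00202, n = 2 a group), its other probe stood at 1.28, and the authors' values gave 0.36. Serpinf2, the gene of the main plasmin inhibitor antiplasmin, stood at 0.27 ± 0.10 by its brightest of 3 probes and at 0.16 and 0.10 by the others. Serpina5, the gene of protein C inhibitor, stood at -0.06 ± 0.19. Neither of them passed (limma adjusted p = 0.0948 for Serpinf2 and 0.837 for Serpina5). Serpini1, the gene of neuroserpin, was not above background. In clade B, the branch of PAI-2, 2 of 5 genes were tested. Serpinb1a, which in mouse encodes an inhibitor of neutrophil elastase, read 158 and 174 raw units in CKO-labelled samples, against 189 and 242 on the control arrays. It fell by 1.01 ± 0.14 (limma adjusted p = 0.0051, n = 2 a group), or by 0.29 on the authors' values, while Serpinb6a at 0.31 ± 0.09 did not pass (limma adjusted p = 0.0551).

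Plg, the gene of plasminogen itself, read 538 and 651 raw units on the CKO-labelled arrays and 614 and 642 on the control arrays by its brightest probe, with overlapping groups. The normalized difference was -0.23 ± 0.10 (SE, n = 2 a group), with a limma adjusted p of 0.132, and further probes above background stood at -0.37 and -0.10. On the authors' values and without background correction it passed, at -0.17 and -0.20 (limma adjusted p = 0.0499 and 0.0468, in a range of 0.0468 to 0.38 over 13 alternatives). Of the genes whose products bind plasminogen at the cell surface, Krt8, a keratin, rose by 0.39 ± 0.09 (limma adjusted p = 0.0256), whereas Anxa2 at 0.18 ± 0.09 and its partner S100a10 at 0.41 ± 0.13 did not pass (limma adjusted p = 0.213 and 0.0608). Krt8 did not pass in any of the 4 fits that leave out 1 array.

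None of 4 tested integrin genes whose products bind vitronectin passed (limma, 0 also at an unadjusted p under 0.05). Itgav stood at -0.17 ± 0.12, Itgb1 at 0.01 ± 0.17, Itgb3 at 0.18 ± 0.16 and Itgb5 at 0.21 ± 0.15, and in none of them were the groups apart. The list of receptors that clear activator and inhibitor complexes also holds the chaperone gene Lrpap1, which is not a receptor gene. Of the 7 tested genes of that list, 3 rose and 4 did not pass. These were Lrpap1, which encodes a chaperone of the family, at 0.56 ± 0.09 (limma adjusted p = 0.00781), Vldlr at 0.55 ± 0.13 (limma adjusted p = 0.024) and Lrp1 at 0.54 ± 0.14 (limma adjusted p = 0.0324). The median of the 7 was 0.27.

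Of 10 tested genes for substrates and proteases downstream, 4 rose and 6 did not pass, with a median of 0.30. Pdgfc, a growth factor gene whose product tissue-type activator cleaves, was below background on the control arrays and rose at least 1.50-fold on the background-corrected scale (limma adjusted p = 0.00319). Its raw means, which include background, stood in a ratio of 1.36, and the authors' values gave 1.11-fold. The gelatinase gene Mmp9 was likewise below background there and rose at least 1.42-fold on that scale (limma adjusted p = 0.00887), with a ratio of raw means of 1.23 and 1.06-fold on the authors' values, where it did not pass. Hgf, whose product urokinase can activate, rose by 0.45 ± 0.11 (limma adjusted p = 0.0285) by 1 of 3 probes, from a cDNA and near background. That probe read 145 and 161 raw units on the CKO-labelled arrays and 124 and 127 on the control arrays. The probe of the RefSeq transcript and a further cDNA probe were below background on all 4 arrays. Ltbp1, which encodes a matrix anchor of latent TGF-beta, rose by 0.45 ± 0.10 by its brightest probe (limma adjusted p = 0.0193), with 0.04 by its other probe above background. The fibrinogen genes Fga, by its brighter probe, and Fgg stood at 0.30 each and did not pass, and neither did Fn1 at 0.10 nor Tgfb1 at 0.08. The other Fga probe, above background on all 4 arrays, stood at 0.48 and passed in the fit over all kept probes (limma adjusted p = 0.0213).

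All 3 genes for tissue inhibitors of metalloproteases rose. Timp1 read 679 and 801 raw units in CKO-labelled samples, against 449 and 464 on the control arrays, and rose by 0.68 ± 0.10 (limma adjusted p = 0.00541). Timp2 rose by 0.68 ± 0.09 (limma adjusted p = 0.00453) and Timp3 by 0.63 ± 0.09 (limma adjusted p = 0.00596), although the dimmest Timp3 probe, above background on 2 of 4 arrays, stood at -0.13. In the contact and coagulation list F10, the gene of factor X, rose by 0.39 ± 0.10 (limma adjusted p = 0.031), while F2 at 0.04 and Thbd at -0.12 did not pass.

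**Figure D3:**
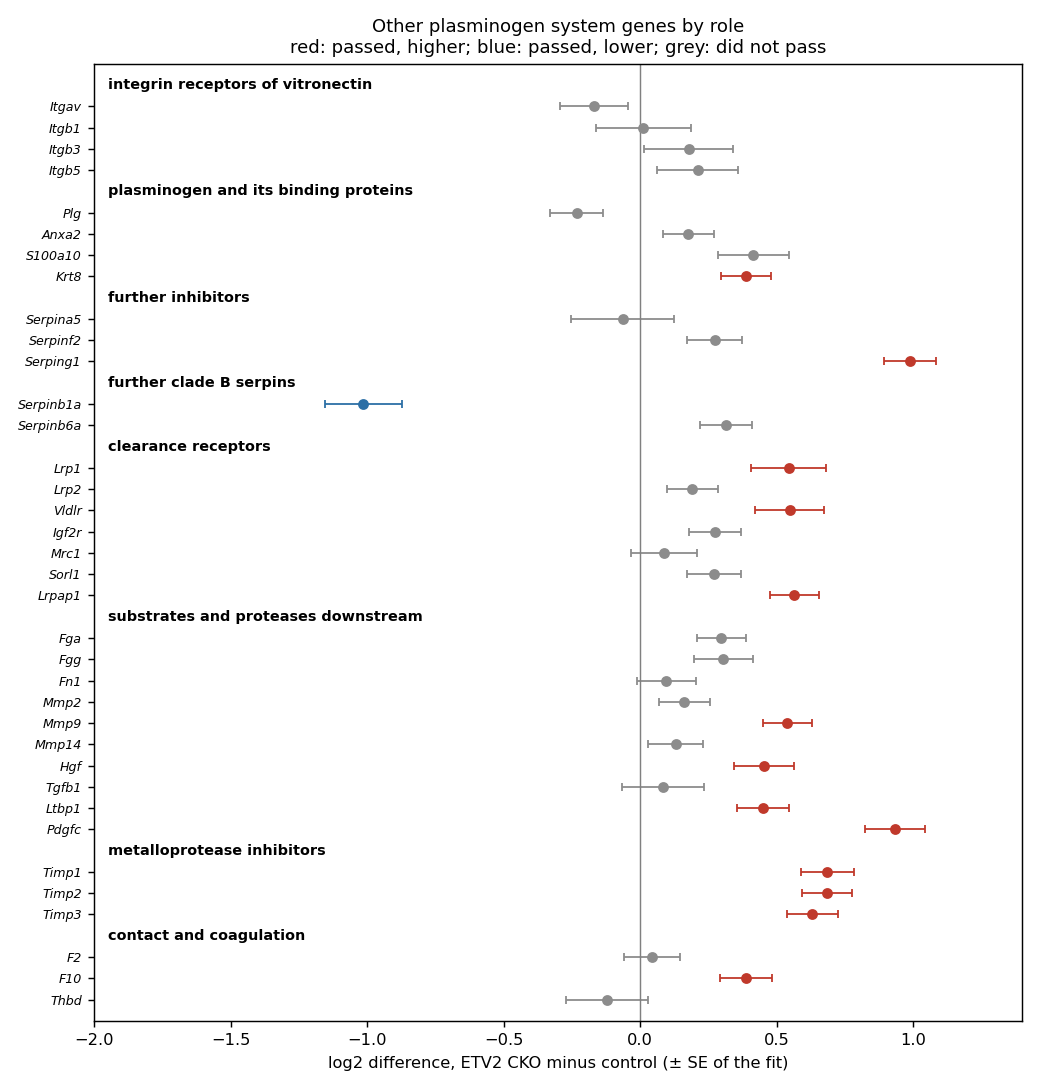
Log2 difference of ETV2 CKO minus control arrays (± SE of the fit, n = 2 a group) for the 36 tested plasminogen system genes outside the 7 listed ones, grouped by role. Genes past the threshold are red where higher and blue where lower, and Serping1, Pdgfc and the 3 Timp genes lie farthest to the right.

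The role lists were chosen with earlier results of these data known, so nothing is read from the share or median of these 36 genes. Of the 36 genes 13 rose (36.1%), 1 fell and 22 did not pass, beside 14.4% higher over all genes. Their median was 0.27 against 0.02. Without CKO replicate 1 only 5 were higher and without CKO replicate 2 only 6, Pdgfc and Mmp9 then being untested, while 9 were higher without either control array. Serping1, Serpinb1a, Lrpap1, Timp1, Timp2 and Timp3 passed in the same direction under all 13 alternatives. Pdgfc and Mmp9, which count among the 13 genes that rose, passed the filter on dim probes through the CKO-labelled arrays alone. They were tested under 10 alternatives only, so their calls depend on that filter and nothing is read from how often they passed. Krt8, Lrp1, Vldlr, Mmp9, Hgf, Ltbp1 and F10 did not pass under at least 1. Leaving out CKO replicate 1 ended the calls of Krt8, Lrp1, Vldlr, Hgf, Ltbp1 and F10, and leaving out CKO replicate 2 those of the same genes but Ltbp1. Without control replicate 1 the calls of Krt8, Vldlr, Ltbp1 and F10 were lost, and without control replicate 2 those of Krt8, Lrp1, Hgf, Ltbp1 and F10. Mmp9 and Hgf did not pass without background correction or on the authors' values, nor did Hgf with the trended robust prior. Lrp1 did not pass on the authors' values or with no filter on dim probes, and Ltbp1 did not with the mean of its probes.

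Most listed markers of parietal endoderm, a list chosen with earlier results known, were higher, as were Vtn and the activators. Of 10 tested markers 9 were higher by their brightest probes and Thbd, at -0.12 ± 0.15, was not past the threshold. Further probes above background passed at 0.95 for Sox7, 0.83 for Sparc, and 0.84 and 1.21 for Pth1r. Others did not pass, at -0.003 for Sox7 and 0.45 for Sparc (limma adjusted p = 0.989 and 0.0503). The summed normalized signal of the 10 on the linear scale was 29681 and 30269 in CKO-labelled samples, against 17498 and 17587 on the control arrays. Sparc, Col4a1 and Col4a2, the brightest of the list, weigh most in it. Lama1 at 1.55 ± 0.11 and Nid1 at 1.27 ± 0.09 had the largest differences of the list, below that of Plat and well below that of Vtn. Of 5 trophoblast giant cell markers Prl2c2 at 2.91 ± 0.11 and Hand1 at 0.49 ± 0.12 were tested and higher. Their summed signal was 942 and 1058 on the CKO-labelled arrays and 210 and 213 on the control arrays. Prl2c2 weighs most in this sum on the CKO-labelled arrays, so the rise of the sum is mostly that of Prl2c2. Hand1 did not pass on the authors' values or without CKO replicate 1, control replicate 1 or control replicate 2, and Krt19 and Col4a1 of the parietal list each failed without 1 of the CKO replicates. The giant cell marker Ctsq was below background on all 4 arrays.

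Of 5 decidua markers 3 were tested and all were higher, with a sum of 3737 and 4152 on the CKO-labelled arrays and 2210 and 2426 on the control arrays. Prl8a2 among them passed the filter on dim probes through the CKO-labelled arrays alone. Dcn, the brightest of the 3, weighs most in the sum. Further Dcn probes above background stood at 0.84, which passed, and at 0.54, which did not (limma adjusted p = 0.00538 and 0.0649). Bmp2 and Ptgs2 were below background on all 4 arrays and not tested. Macrophages are a known source of urokinase and its receptor. Of their markers 1 of 3 tested was higher, Csf1r at 1.13 ± 0.14. The 3 summed to 883 and 997 on the CKO-labelled arrays and 779 and 850 on the control arrays. Mrc1, the brightest of the 3, weighs most in that sum and did not pass, at 0.09 ± 0.12. The macrophage markers Adgre1 and Fcgr1 did not pass the filter on dim probes. By contrast 0 of 8 visceral endoderm markers passed (limma, 0 also at an unadjusted p under 0.05). Their sums were 84667 and 82377 on the CKO-labelled arrays and 83746 and 82797 on the control arrays, which overlap. Ttr and Apoa1, the brightest of the 8, weigh most in these sums. Ttr read 19097 and 20613 raw units on the CKO-labelled arrays, where the highest signals of any probe were 23938 and 24688. Whether differences are compressed near that top was not tested. Endothelial markers were lower in 2 (Tie1 and Emcn) and higher in 1 (Cdh5) of 5 tested. The other Cdh5 probe, above background on all 4 arrays, stood at 0.06 and did not pass (limma adjusted p = 0.707). With the mean of its probes Cdh5 stood at 0.24 and did not pass. Kdr was below background on all 4 arrays. Erythroid markers were lower in 3 of 4, and the 1 tested mesothelium marker, Upk3b, did not pass. The 3 endothelial calls were each lost without CKO replicate 1 and without control replicate 2, that of the erythroid gene Alas2 and of the decidua gene Cryab without CKO replicate 1, and that of Prl8a2, below background on the control arrays, without control replicate 2 and on the authors' values (0.098). The part of any of these cells in the Vtn, Plat and Plau values was not tested.

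**Figure D4:**
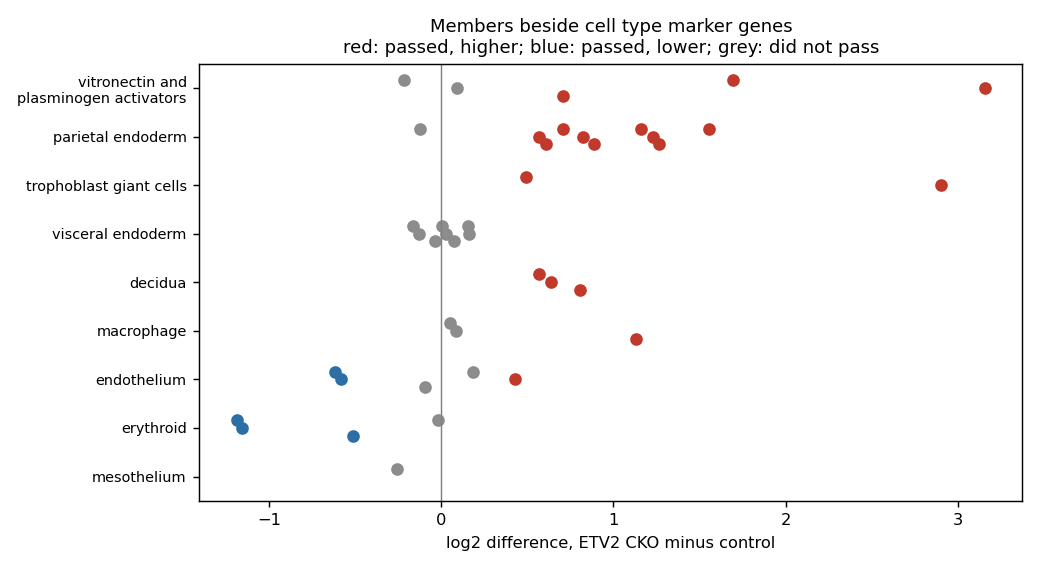
Log2 differences of ETV2 CKO minus control arrays for the 5 tested members (top row) and for tested marker genes of 8 cell types, 1 point a gene, red where past the threshold and higher, blue where lower and grey where not past it. The parietal endoderm points lie mostly between 0.57 and 1.55, and the visceral endoderm points lie around 0.

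By likeness of profile, measured as the Euclidean distance between normalized values centred on each gene's mean over the 4 arrays, the tested genes nearest to Vtn were Prl2c2 (distance 0.41), Klk6 (0.49) and Prl2c4 (0.52). Their differences were 2.91, 2.71 and 3.17 in that order. The Prl2c genes, which encode proliferins of trophoblast, are near-identical copies and cannot be told apart with certainty, and Klk6 was below background on the control arrays (at least 5.06-fold). Nearest to Plat were Kit, Fbxo15 and Susd2, each at a distance of 0.09, with differences of 1.63, 1.73 and 1.64. Fbxo15 was below background on the control arrays (at least 2.38-fold). With 4 arrays in 2 groups, likeness here is mostly a like difference between the groups.

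Genes beside the members on their chromosomes gave no like pattern. Among the 20 nearest tested genes, 4 around each of the 5 tested members, 3 were lower, 2 higher and 15 not past the threshold, or 25.0% past it beside 25.2% of all genes. Around Vtn, Tmem199 was lower by 0.58 ± 0.10 (SE, n = 2 a group), and Slc46a1 at 0.25, Unc119 at -0.21 and Poldip2 at -0.07 did not pass. Around Plat, the red cell ankyrin gene Ank1 was lower at -0.96 ± 0.14, and Polb, Ikbkb and Ap3m2 stood between -0.21 and 0.02. Next to Plau, Ndst2 was higher at 0.35. Next to Plaur, Kcnn4 was lower at -1.01 and Irgq higher at 0.61. None of the 4 genes around Plgrkt passed.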

How the data were processed

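Probe signals of 4 arrays were taken as the authors deposited them, as linear intensity, not normalized and, judging by their minima, with background still included, and with a detection p-value per probe in the same deposited table. The authors' deposited processed table, also linear intensity, has the same distribution on each array and served as an alternative. The submitters' processing notes list lumi 2.15.1, and nothing further on the authors' steps is used here. From the raw signals, neqc of limma 3.58.1 (R 4.3.3) corrected background from the detection p-values, added an offset of 16, applied quantile normalization and took log2. The 18817 probes above background (detection p below 0.05) on 2 or more arrays were kept, and the brightest kept probe stood for each of 10603 named genes. Symbols come from the platform annotation, which names 34885 probes with 1 symbol, 18 with several and leaves 10378 unnamed here. Looking up entrez identifiers in a RefSeq table (GRCm38.p6) changed 0 symbols, and that table also gave gene order.

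Group differences (ETV2 CKO minus control) were fitted with lmFit and eBayes, 2-sided, with Benjamini-Hochberg adjustment over all 10603 genes at 0.05. An exact permutation test of 2 against 2 arrays cannot give a p below 0.333, so p-values rest on the spread shared across genes, and the number of arrays limits precision. Further probes of a gene were read from the same fit over all kept probes. A gene below background on every array of a group is given as a bound on the background-corrected scale, the bright group's mean over the higher of the lowest signal above background and the probe's own. The members, the role lists and the marker lists were chosen with earlier results of these data known. The named genes were all members, Etv2, Plg, up to 3 genes of largest change per role list among those past the threshold, and the 3 nearest profiles of Vtn and Plat. The other genes, neighbours and further probes were named after their values were seen. Alternatives were no background correction, median scaling, the authors' values, an offset of 50, other probe filters, the mean of probes, a trended robust prior, the replicate block and leaving out each array.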

Additional observations from a re-analysis of the deposited data

How the results depend on the processing

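The 3 members that were higher stayed so, and 0 were lower, under each of 13 alternatives. Vtn ranged from 1.30 to 3.26 on the log2 scale, Plat from 0.94 to 1.77, Plau from 0.16 to 0.83 and Plaur from -0.24 to -0.07. Plgrkt, which passed under none, ranged from -0.036 to 0.21 when 1 array was left out, and was -0.036 without CKO replicate 2. The smallest differences of Vtn, Plat and Plau came from the authors' values. Of the other plasminogen system genes, 2 in place of 1 were lower on the authors' values and without background correction, and 20 in place of 13 were higher with a trended robust prior. Leaving out 1 array gave 5 to 9 higher, with the single lower gene each time. Over all genes median scaling left 649 lower (1535 higher), and leaving out 1 array left 547 to 662 lower and 667 to 1054 higher, each such fit assuming that the lone array varies like those of the other group. Fitting the replicate block gave 1164 lower and 1561 higher genes and 3 higher members. The difference of replicate 1 from 2 correlated at 0.07 between the groups over genes, so no large effect shared by replicate number was seen. This cannot show whether the samples were paired by litter or day. The block changed no call of a member. The activators minus inhibitors difference was not run, since 0 listed inhibitors were tested. Signals near background limit Vtn and Plau on the control arrays most. The cause of the other shifts was not tested.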
